A study of Mus musculus with 8 samples.

Results

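The genes described here are the cytochrome P450 (Cyp) genes of mouse liver that are left when the Cyp4a, Cyp2a and Cyp2b subfamilies, the bile acid and sterol genes Cyp7a1, Cyp7b1, Cyp8b1, Cyp27a1 and Cyp51, and Cyp2e1 and Cyp1a2 are set aside. They were chosen by gene symbol alone, and 68 of the 17164 genes in the deposited table met the rule: 14 Cyp2c, 8 Cyp2d, 5 Cyp2j, 9 Cyp3a and 9 Cyp4f genes and 23 others. Of these, 44 reached an FPKM (reads scaled by transcript length and by library size) of at least 1 in at least 2 libraries and were tested, among 11606 such genes of the table. The 24 members below that level are given by level only.

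P450 enzymes are haem proteins of the endoplasmic reticulum or mitochondria that insert oxygen into lipophilic molecules with electrons from NADPH. In the endoplasmic reticulum these are passed on by P450 oxidoreductase and cytochrome b5, in mitochondria by ferredoxin and its reductase. In liver the Cyp2c, Cyp2d and Cyp3a enzymes oxidise drugs, steroids and other foreign compounds, and Cyp2c and Cyp2j enzymes also make epoxides of arachidonic acid. Cyp4f enzymes hydroxylate the ends of fatty acids and leukotrienes. Many of these genes are expressed at higher levels in one sex, under the control of the rhythm of growth hormone release, and many are induced through the nuclear receptors CAR (Nr1i3) and PXR (Nr1i2).

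RNA was sequenced from the livers of 8 male C57BL/6 mice, 2 in each of 4 groups. Model mice were given diethylnitrosamine (DEN, a carcinogen that liver enzymes activate, 0.67% v/w) intraperitoneally at 2 weeks of age and, from 8 weeks of age, carbon tetrachloride (CCl4, a liver toxicant, 20% in olive oil) by the same route until the end. DWYG-M and DWYG-H mice had the same DEN and CCl4 and in addition, from 17 weeks, a herbal medicine (DWYG, Diwu Yanggan capsules) at 1 (M) or 2 (H) times the clinical equivalent dose. Control mice were given saline in place of DEN, and no olive oil is described for them. Livers were taken at 22 weeks of age. The 2 mice per group were drawn at random from 6, and the sources used here do not state whether tumour or surrounding tissue was sampled. The p-values below measure the spread between the sequenced mice.

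Libraries held between 17345627 and 19191382 reads. Hepatocyte markers were abundant in every library, with a summed FPKM of 68170 to 101200 over the 8 of 9 listed markers in the table. Of these 8, 1 was called lower in the model (12.5%, against 7.12% of all genes). Model replicate 2 stood apart: in scaled counts it was the lowest of the 8 libraries in 21 of the 44 tested members, and the members took 0.611% of its reads against 0.894% to 1.57% in the other libraries. Control replicate 1 stood apart in genes of the adrenal gland, listed after their values were seen. Of 9 adrenal cortex genes 8 were highest there, with a summed FPKM of 24.3 against 1.15 to 9.12 in the other libraries, and 4 of 4 adrenal medulla genes were highest there, at 1.61 against 0 to 0.15.

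In the model, 14 of the 44 tested members were called lower than in control (31.8%) and 7 higher (15.9%). Among all tested genes, 7.12% were called lower and 15.1% higher in the same comparison, or 22.2% together, so the share of members called higher was near that of all genes while the share called lower was above it. A call here is an adjusted p under 0.05 in edgeR's quasi-likelihood test. DESeq2 called 20 members lower and 6 higher, and 2839 genes in all. Of the 7 higher in edgeR, Cyp3a44 and Cyp4f18 passed the filter only through DEN-treated libraries. Cyp4f16 and Cyp17a1 reached an FPKM of 1 in only 1 control library, so they too needed a DEN-treated library to be tested. The median log2 fold change of the tested members was -0.62, against -0.01 over all tested genes. On the FPKM scale with a pseudocount of 1 the medians were -0.34 and 0.21, and on the TPM scale -0.02 and 0.50, so that the members lay below the median of all genes by a similar distance on each scale. The share of higher calls among all genes called was 68% in counts, 91.7% in FPKM and 97.5% in TPM, while for the members the calls were 7 higher and 14 lower in counts, 8 and 11 in FPKM, and 9 and 11 in TPM. In scaled counts, both model libraries lay below both control libraries in 22 of the 44 members (50%) against 29.2% of all genes, and above them in 10 (22.7%) against 30.3%.

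Leaving out 1 library moved these counts. Without control replicate 1 there were 5 higher and 6 lower, without control replicate 2 there were 3 and 6, and without model replicate 2 there were 5 and 8. Without model replicate 1 there were 7 and 19. The calls of 9 members held in every alternative in which they were tested: Cyp2c67, Cyp2c37, Cyp2c23, Cyp2d9, Cyp2u1 and Cyp4v3 among the lower, and Cyp2c55, Cyp4f16 and Cyp3a44 among the higher. The other 12 calls were each lost when at least 1 control or model library was left out, with adjusted p between 0.0501 and 0.197.

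Markers of some other cell types moved in the same comparison, in which 15.1% of all tested genes were called higher. Of the stellate cell and myofibroblast markers, 5 of 8 were called higher, with a summed FPKM of 95.8 and 96.6 in control and 308 and 306 in the model. All 4 tested cholangiocyte markers were called higher (2.86 and 4.72 against 25.2 and 25.9 summed over 5 genes), as were both tested neutrophil markers (11.9 and 6.37 against 181 and 50.3 summed over 3 genes). Of the 6 macrophage markers 1 was called higher (16.7%), near the share of all genes, and of the 5 endothelial markers none was. The part of these cells in the P450 results was not tested, and in bulk liver fewer cells of a type and less RNA per cell cannot be told apart.

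**Figure D1:**
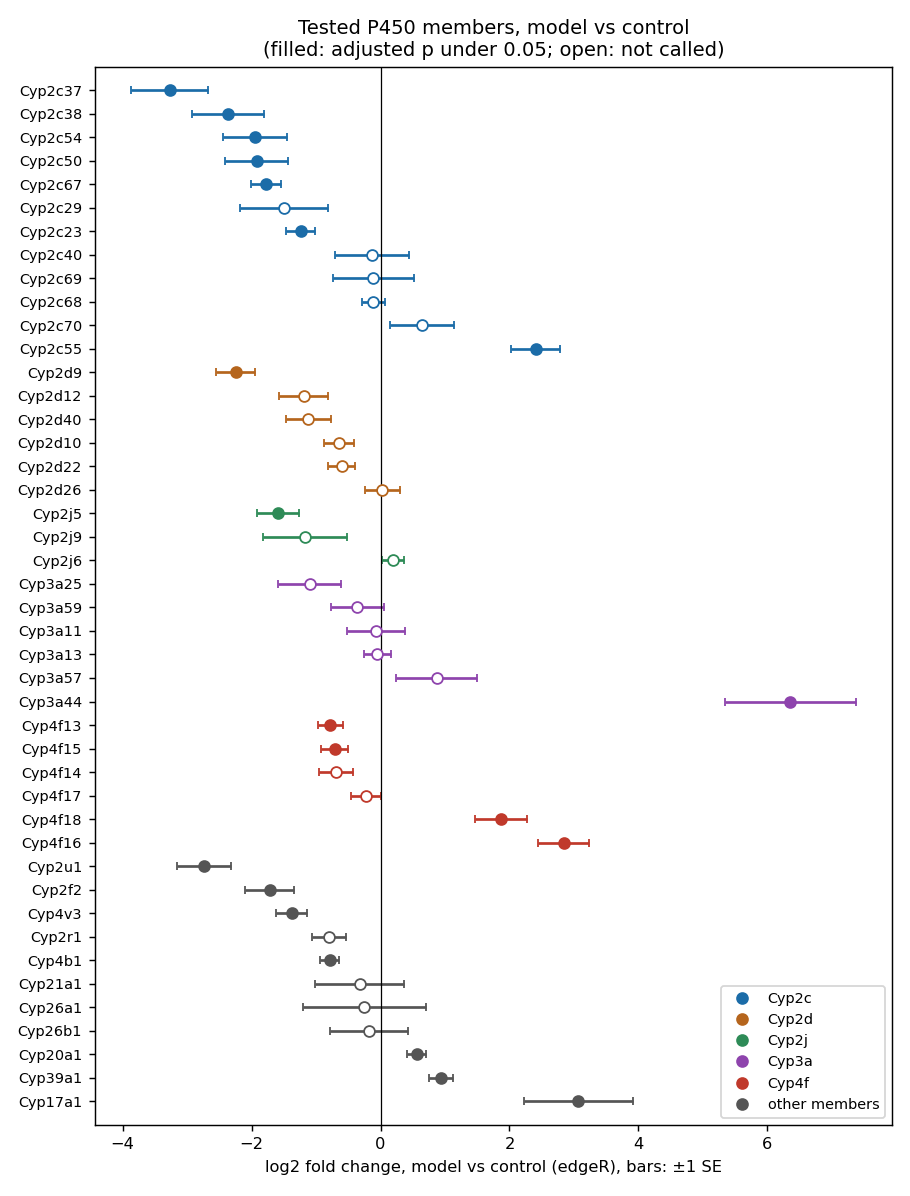
Log2 fold change of the 44 tested members in model against control liver, with bars of ±1 standard error, coloured by subfamily; filled points had an adjusted p under 0.05. The values run from -3.27 for Cyp2c37 to 6.36 for Cyp3a44, and the 14 filled points left of zero include 6 Cyp2c genes.

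Cyp2c genes were the subfamily with the most lower calls in edgeR, and also the named subfamily with the most tested genes. Of 12 tested, 6 fell (50%, against 7.12% of all genes) and 1 rose (8.33%, against 15.1%). The median was -1.37. The order of the subfamilies by share of lower calls depends on the tool, as given for Cyp2d below. Cyp2c37, an arachidonic acid oxidising enzyme, had FPKM of 210 and 135 in control and 36.5 and 8.08 in the model. Both model libraries lay far below both controls, and the fold change was -3.27 on the log2 scale (SE 0.60, adjusted p = 0.00879). Cyp2c67 went from 215 and 178 FPKM to 85.4 and 53.8 (log2 -1.78, SE 0.23, adjusted p = 0.00247). Cyp2c23, an arachidonic acid epoxygenase, went from 239 and 250 to 153 and 100.2 (log2 -1.24, SE 0.22, adjusted p = 0.00776). In none of these genes did the groups overlap.

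The other 3 Cyp2c genes that fell were the epoxygenases Cyp2c50 and Cyp2c54 and the low-expressed Cyp2c38. Expected counts of Cyp2c50 and Cyp2c54 held fractions in every library (14349.91 and 4748.09 in control replicate 1). Reads may therefore have been shared between these genes, and their falls may not be separate measurements. Cyp2c50 had 524 and 515 FPKM in control and 263 and 80.1 in the model (log2 -1.92, SE 0.49, adjusted p = 0.0274). Cyp2c54 had 186 and 180 in control and 88.9 and 29.0 in the model (log2 -1.95, SE 0.50, adjusted p = 0.0277). Cyp2c38 had 17.0 and 15.6 in control and 5.61 and 2.10 in the model (log2 -2.37, SE 0.56, adjusted p = 0.0220). In each of the 3 genes model replicate 2 was the lower of the model pair, and each call was lost without model replicate 2 or without either control library, with adjusted p of 0.0640 to 0.0986. Cyp2c29, the Cyp2c gene with the highest mean level and a target of CAR, had 597 and 530 FPKM in control and 420 and 81.9 in the model. Its log2 fold change of -1.50 (SE 0.68) did not pass (adjusted p = 0.155), and it was -0.79 when model replicate 2 was left out. With model replicate 1 left out it was -2.93 and passed (adjusted p = 0.0155).

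Cyp2c55 was the Cyp2c gene that rose. This enzyme, which hydroxylates arachidonic acid, had FPKM of 1.46 and 1.32 in control and 12 and 6.13 in the model. The groups were well apart (log2 2.41, SE 0.38, adjusted p = 0.00495). Uncalled Cyp2c genes included Cyp2c70, which makes the muricholic acids of mouse bile, at 166 and 142 FPKM in control and 359 and 224 in the model, and Cyp2c68, at 152 and 123 against 168 and 139.

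Among the members, Cyp2c67 and Cyp2c68 follow each other on the chromosome in the RefSeq gene order. They were picked, after their values were seen, because their levels stood in different proportions in the groups. Within each library the FPKM ratio of Cyp2c67 to Cyp2c68 was 1.41 and 1.45 in control, and 0.507 and 0.386 in the model. With DWYG-M it was 0.617 and 0.477, with DWYG-H 0.419 and 0.381. Control libraries were above all the others. These genes are close copies of each other, so reads may have been shared out between them. Their promoters are shown as the 250 bases before each annotated start, from RefSeq on GRCm38.p6, which is not the build of the counts. The windows are chr19:39649043-39649292, minus strand, and chr19:39741102-39741351, minus strand, written 5′ to 3′ in the direction of the gene. Capitals mark matches on either strand to TATAAA or CAAAGTCCA. The first is the core promoter box of that name and the second an element of the HNF4 type.
Cyp2c67: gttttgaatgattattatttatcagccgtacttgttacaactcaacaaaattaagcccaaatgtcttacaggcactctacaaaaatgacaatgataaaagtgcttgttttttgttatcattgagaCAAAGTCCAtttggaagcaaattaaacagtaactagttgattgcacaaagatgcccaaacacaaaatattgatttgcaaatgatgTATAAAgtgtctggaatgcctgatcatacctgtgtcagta
Cyp2c68: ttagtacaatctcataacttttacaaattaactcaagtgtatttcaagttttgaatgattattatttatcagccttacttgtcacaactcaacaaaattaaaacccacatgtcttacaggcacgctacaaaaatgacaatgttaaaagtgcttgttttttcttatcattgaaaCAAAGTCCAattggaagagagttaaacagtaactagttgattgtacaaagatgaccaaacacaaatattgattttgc

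Over the 204 positions that align, 187 were identical (91.7%). Both windows hold CAAAGTCCA. The TATAAA of the Cyp2c67 window lies past the end of the aligned stretch, since the windows are offset, and has no counterpart among the bases shown for Cyp2c68. Over all 32851 promoter windows of this length in the table, 0.384% held CAAAGTCCA and 12.4% held TATAAA on either strand. Of the 62 windows of the 54 members found there, 10 (16.1%) held CAAAGTCCA and 19 (30.6%) held TATAAA. TTCNNNGAA, the STAT motif, was in 2 of the 62 (3.23%) against 7.02% of all windows. Of 11 windows of members called lower in the model, 1 held CAAAGTCCA (9.09%), 4 TATAAA (36.4%) and 2 TTCNNNGAA (18.2%). Among 5 windows of members called higher, 2 held TATAAA (40.0%), and neither other motif was found. Windows of close copies resemble each other, so the member windows are not independent. A match is a run of letters and not a measured binding site.

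In the Cyp2d subfamily edgeR called 1 of 6 tested genes lower (16.7%, against 7.12% of all genes) and none higher (0%, against 15.1%). The median was -0.88, and DESeq2 called 5 lower. The gene called by both was Cyp2d9, a testosterone hydroxylase known for its male-biased expression in mouse liver. It had 1072 and 1209 FPKM in control and 358 and 228 in the model, a log2 fold change of -2.25 (SE 0.30, adjusted p = 0.00257). It took 13.7% and 15.2% of the members' summed FPKM in control and 5.31% and 5.84% in the model. Cyp2d26, the Cyp2d gene with the highest mean level, had 561 and 619 FPKM in control and 578 and 856 in the model. Its groups overlapped, and its log2 fold change was 0.03 (SE 0.27, adjusted p = 0.952), with a sign that turned when model replicate 2 or control replicate 1 was left out. On the TPM scale alone it passed, at 0.58. The remaining 4 tested Cyp2d genes, Cyp2d10, Cyp2d12, Cyp2d22 and Cyp2d40, had log2 values from -1.19 to -0.60. They did not pass in edgeR, and all 4 were called lower by DESeq2.

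Cyp2d10, next to Cyp2d9 among the members in the gene order, had 532 and 627 FPKM in control and 440 and 456 in the model. The ratio of Cyp2d9 to Cyp2d10 within a library was 2.02 and 1.93 in control, and 0.813 and 0.501 in the model. With DWYG-M it was 0.854 and 1.26, with DWYG-H 1.13 and 0.960. Again the controls were above the other libraries, and again reads may be shared between the copies. The promoters of this pair are shown for the same reason as those above, from chr15:82452127-82452376, plus strand, and chr15:82407195-82407444, minus strand, in GRCm38.p6. Capitals mark TATAAA, here on the opposite strand.
Cyp2d9: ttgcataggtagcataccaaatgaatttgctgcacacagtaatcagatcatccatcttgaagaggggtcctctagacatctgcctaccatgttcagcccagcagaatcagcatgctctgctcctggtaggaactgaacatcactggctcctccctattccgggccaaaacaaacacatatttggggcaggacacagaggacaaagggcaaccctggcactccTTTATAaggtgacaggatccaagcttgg
Cyp2d10: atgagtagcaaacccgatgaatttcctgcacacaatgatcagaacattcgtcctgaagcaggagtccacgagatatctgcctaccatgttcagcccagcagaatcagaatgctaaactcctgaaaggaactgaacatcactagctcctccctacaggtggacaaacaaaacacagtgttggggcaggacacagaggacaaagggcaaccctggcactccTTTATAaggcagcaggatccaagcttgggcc

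Of 247 aligned positions in this pair, 209 were identical (84.6%), and the TATA box match was in both windows.

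Cyp2j genes make epoxides of arachidonic acid. Of 3 tested, 1 fell (33.3%, against 7.12% of all genes) and none rose (0%, against 15.1%). The gene that fell was Cyp2j5, from 231 and 227 FPKM in control to 130 and 58.2 in the model (log2 -1.59, SE 0.33, adjusted p = 0.0135). Leaving out either control library ended the call (adjusted p 0.0502 and 0.0654). Cyp2j6 was at 14.0 and 15.8 FPKM in control and 22.9 and 20.3 in the model. It was not called in edgeR or DESeq2, and was called higher by limma on FPKM and TPM. Cyp2j9 (log2 -1.17) was not called. The ratio of Cyp2j5 to Cyp2j6 within a library was 16.4 and 14.4 in control, and 5.67 and 2.87 in the model. With DWYG-M it was 6.01 and 8.07, with DWYG-H 5.99 and 7.34. Control libraries were above the others, as in the pairs above, and this pair too was picked after its values were seen. Unlike those pairs, Cyp2j5 and Cyp2j6 do not follow each other among the members, since Cyp2j9 lies between them. No ratio to Cyp2j9 was taken.

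Of 6 tested Cyp3a genes, edgeR called 1 higher (16.7%, against 15.1% of all genes) and none lower (0%, against 7.12%). The median was -0.06, and DESeq2 also called Cyp3a25 lower. Whether this subfamily differs from the others was not tested. Cyp3a11, the main Cyp3a enzyme of mouse liver and a target of PXR, had the highest mean FPKM of all members. It had 1289 and 1383 FPKM in control and 2381 and 803 in the model. The model libraries lay on either side of both controls, and the log2 fold change was -0.07 (SE 0.45, adjusted p = 0.934), with a sign that depended on the library and the scale. Cyp3a11 made up 16.5% and 17.4% of the members' summed FPKM in control, and 35.3% and 20.5% in the model. With DWYG-M the share was 29.6% and 33.0%, with DWYG-H 28.2% and 28.9%. The 4 other genes not called in edgeR, Cyp3a13, Cyp3a25, Cyp3a57 and Cyp3a59, had log2 values from -1.10 for Cyp3a25 to 0.87 for Cyp3a57, and Cyp3a57 also passed the filter only through DEN-treated libraries.

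Cyp3a44, a female-biased gene, rose from nearly nothing. It had no read in control replicate 1 and 1 read in control replicate 2, against 40 and 85 reads in the model libraries. The ratio of reads, allowing for library size, was 98.3 with an exact 95% interval of 17.3 to 3910, which covers counting error only. The fitted log2 value of 6.36 (SE 1.02, adjusted p = 0.00518) depends on how the empty library is handled. Its FPKM of 1.34 and 2.70 in the model remained low, and the gene passed the filter only through libraries of the DEN-treated groups. The untested relatives Cyp3a41a (0 and 0.11 in control, 0.48 and 2.36 in the model) and Cyp3a16 (0 and 0 against 0.27 and 0.81) had their highest FPKM in model replicate 2. Expected counts of Cyp3a44 and Cyp3a16 were whole numbers in all 8 libraries. Those of Cyp3a41a (15.03 and 78.87) and of the untested Cyp3a41b (9.97 and 4.13) held fractions in the model libraries, so reads may have been shared between Cyp3a41a and Cyp3a41b.

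**Figure D2:**
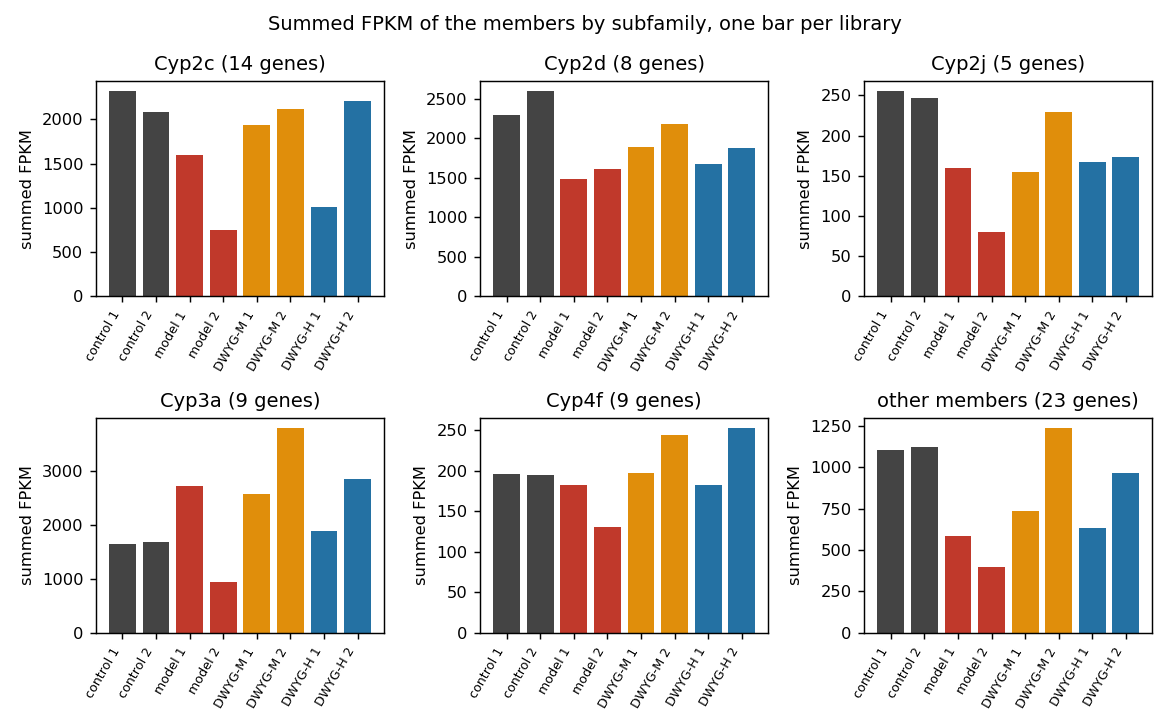
Summed FPKM of the members in each subfamily, with 1 bar per library coloured by group. Cyp2c sums were 2319 and 2082 in control and 1598 and 744 in the model, while the Cyp3a sum was 1658 and 1690 in control and 2728 and 939 in the model.

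Cyp4f genes went both ways. Of 6 tested, 2 rose (33.3%, against 15.1% of all genes) and 2 fell (33.3%, against 7.12%), with a median of -0.46. Cyp4f16 had 1.04 and 0.89 FPKM in control and 6.25 and 9.84 in the model (log2 2.84, SE 0.40, adjusted p = 0.00315). With only 1 control at the filter level, Cyp4f16 was tested because DEN-treated libraries also reached it. Cyp4f18, the leukotriene B4 hydroxylase of mouse neutrophils, had 0.44 and 0.62 in control and 2.56 and 2.14 in the model (log2 1.87, SE 0.40, adjusted p = 0.0148). It passed the filter only through DEN-treated libraries, and leaving out either control library ended the call (adjusted p 0.0586 and 0.0893). Summed neutrophil markers were lowest in the controls, at 11.9 and 6.37 FPKM, and so was Cyp4f18. The markers were highest in DWYG-M replicate 2 at 223 FPKM, where Cyp4f18 was at 1.54. Their part in the Cyp4f18 result was not tested. The defining neutrophil marker Ly6g was at 0 in both controls and at 0 to 0.32 FPKM in the other libraries.

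Cyp4f13 and Cyp4f15 were the Cyp4f genes that fell. Cyp4f13 had 54.0 and 53.6 FPKM in control and 39.0 and 36.3 in the model (log2 -0.78, SE 0.19, adjusted p = 0.0227). Cyp4f15 had 41.7 and 48.2 in control and 41.5 and 26.6 in the model (log2 -0.71, SE 0.21, adjusted p = 0.0491). The Cyp4f15 call was lost in 9 of 14 alternatives and that of Cyp4f13 in 7, including each removal of 1 of the 4 libraries for Cyp4f13. Cyp4f14, a leukotriene and fatty acid hydroxylase and the Cyp4f gene with the highest mean level, had 92.7 and 88.1 FPKM in control and 86.7 and 52.3 in the model and did not pass (log2 -0.69, SE 0.27, adjusted p = 0.108). Cyp4f17, the last tested gene of the subfamily, had a log2 value of -0.23 and was not called.

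Among the 11 other members tested, 4 fell (36.4%, against 7.12% of all genes) and 3 rose (27.3%, against 15.1%). The 4 that fell act on fatty acids or foreign compounds. Cyp2u1, a long-chain fatty acid hydroxylase, had 9.22 and 9.0 FPKM in control and 0.98 and 2.23 in the model (log2 -2.74, SE 0.42, adjusted p = 0.00439). Cyp4v3, another fatty acid hydroxylase, had 277 and 211 in control and 137 and 91.0 in the model (log2 -1.38, SE 0.24, adjusted p = 0.00741). Cyp2f2, which activates naphthalene and is known as a periportal gene in liver, had 756 and 857 in control and 368 and 231 in the model (log2 -1.72, SE 0.38, adjusted p = 0.0172). The groups did not overlap in these genes, but the Cyp2f2 call was lost without model replicate 2 or either control library (adjusted p 0.0507 to 0.0849). Cyp4b1, an enzyme that activates the lung toxin ipomeanol, had 13.7 and 12.9 in control and 9.97 and 8.68 in the model (log2 -0.79, SE 0.15, adjusted p = 0.0111), and the call ended on each normalized scale and when either control library was left out (highest adjusted p 0.375).

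The members of this group that rose act on sterols and steroids, apart from Cyp20a1, an enzyme with no known substrate. Cyp39a1, an oxysterol hydroxylase, had 12.6 and 9.10 FPKM in control and 27.6 and 22.8 in the model (log2 0.94, SE 0.19, adjusted p = 0.0120). Its call was lost without control replicate 2 alone (adjusted p = 0.0987). Cyp20a1 had 5.39 and 5.46 in control and 9.85 and 9.43 in the model (log2 0.56, SE 0.15, adjusted p = 0.0365) and lost its call in 6 of 14 alternatives. Cyp17a1, the steroid hydroxylase and lyase, had 0.58 and 1.56 FPKM in control and 3.40 and 17.6 in the model (log2 3.07, SE 0.84, adjusted p = 0.0349). It reached the filter level in only 1 control library and so needed a DEN-treated library to be tested. Model replicate 2 held 512 of its reads and model replicate 1 held 94. Without model replicate 2 the log2 value was 1.29 (adjusted p = 0.168), and the call also ended when either control was left out and in a fit of the 2 groups alone.

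The remaining steroid hormone members, Cyp11a1, Cyp11b1, Cyp11b2 and Cyp21a1, are themselves 4 of the 9 listed adrenal cortex genes. The 5 listed genes that are not members summed to 13.9 FPKM in control replicate 1 and to 0.5 to 6.22 in the other libraries, and 4 of the 5 were highest there. Cyp11a1, which starts steroid synthesis, was at 3.53 FPKM there and at 0 to 0.11 in the other 7 libraries, and Cyp11b1 was at 1.52 there and listed at 0 elsewhere. Neither was tested. Cyp21a1, the steroid hydroxylase of the adrenal cortex, was at 5.15 in control replicate 1, 0.61 in control replicate 2 and 2.54 and 2.86 in the model, and was not called. Hsd3b1, an adrenal and gonadal enzyme that is not a member, was at 7.98 in control replicate 1 and at 0 to 0.12 elsewhere, and the adrenal hormone receptor Mc2r at 0.29 and at 0 elsewhere. Cyp17a1, which is not on the adrenal list, was lowest of all libraries in control replicate 1. Akr1b7, which is on it, was highest in the model, at 5.07 and 5.62 against 2.10 in control replicate 1. The source of these transcripts was not tested.

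**Figure D3:**
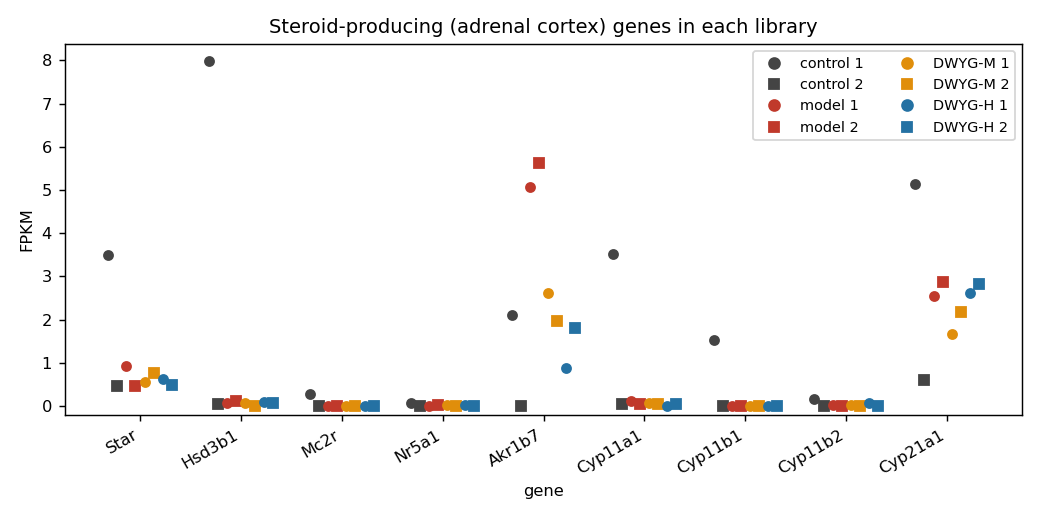
FPKM of 9 adrenal cortex genes in each of the 8 libraries, with colour for the group and shape for the replicate; the list was made after the values were seen. Control replicate 1 is the highest library for 8 of the 9 genes, and Akr1b7 is highest in model replicate 2.

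Smaller functional groups of members gave few calls. Cyp26a1 and Cyp26b1, which clear retinoic acid, were at 5.90 and 1.82, and 1.10 and 3.44 FPKM in control and at 4.62 and 3.49, and 2.65 and 2.34 in the model, and neither was called. Cyp2r1, which makes the circulating form of vitamin D, was at 13.5 and 10.9 in control and 11 and 6.52 in the model, and was called lower by DESeq2 but not by edgeR. The aryl hydrocarbon receptor targets Cyp1a1 and Cyp1b1 were below the filter: Cyp1b1 was at 0.23 and 0.17 FPKM in control and 1.79 and 0.96 in the model, and Cyp1a1 at 0.34 and 0.40 against 1.84 and 0.22. Cyp2s1 was at 0.05 in both controls and at 0.60 and 0.59 in the model, also untested. Of the 24 untested members, 5 exceeded an FPKM of 1 in a single library and 19 in none. The 5 were Cyp11a1, Cyp11b1, Cyp1a1, Cyp1b1 and Cyp3a41a. In the other 19 the highest FPKM of any library was 0.96, in Cyp2c39.

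Of the 9 members listed as female-biased, 5 were tested. Cyp3a44 and Cyp17a1 were called higher (40%, against 15.1% of all genes) and Cyp2c38 lower (20%, against 7.12%), with a median of -0.11. Cyp3a44 could be tested only through the DEN-treated libraries where it was high, and Cyp17a1 also needed a DEN-treated library to pass the filter. The calls of Cyp17a1 and Cyp2c38 were lost without model replicate 2 or either control library. The 2 others tested, Cyp2c40 and Cyp2c69, were each highest in model replicate 2 of the 8 libraries, at 13.2 and 5.18 FPKM, and at 3.70 and 1.46 in model replicate 1. Expected counts of Cyp2c40 and Cyp2c69 held fractions in every library (375.7 and 144.09 in model replicate 2). Reads may have been shared between them or with other copies, so their levels may not be separate measurements. The listed male-biased gene, Cyp2d9, fell as given above.

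Electron donors and haem synthesis serve P450 enzymes in the endoplasmic reticulum and mitochondria. Of 16 genes for electron donors and haem supply, all tested, none was called higher and 4 lower (25%, against 7.12% of all genes): Cyb5b, a cytochrome b5 (log2 -0.80, adjusted p = 0.0412), and the haem synthesis enzymes Alad (-0.89, 0.0334), Cpox (-0.98, 0.0363) and Fech (-0.56, 0.0352). Each of these calls was lost when single libraries were left out, and Alad and Fech turned to 0.03 on the TPM scale. The median was -0.49. Uncalled genes of the list included Alas1, the first enzyme of haem synthesis, at 107 and 46.2 FPKM in control and 173 and 142 in the model, and Por, the oxidoreductase, at 50.9 and 70.1 against 130 and 104. In both of these the model libraries were the higher ones.

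Of 25 regulators of hepatic P450 genes, 24 were tested. None was called higher, against 15.1% of all genes, and 5 were called lower (20.8%, against 7.12%). The median was -0.41, against -0.01 over all genes. Ghr, the growth hormone receptor, was at 221 and 204 FPKM in control and 120 and 52.2 in the model (log2 -1.54, SE 0.33, adjusted p = 0.0155). Nr1i3, which encodes CAR, was at 51.8 and 49.7 against 35.9 and 10.8 (log2 -1.42, SE 0.40, adjusted p = 0.0401). Bcl6, a male-biased repressor, was at 3.38 and 14.2 against 3.29 and 1.91 (log2 -2.03, SE 0.56, adjusted p = 0.0351), where the FPKM of control replicate 1 and model replicate 1 nearly met. Cebpa (-1.09, adjusted p = 0.0365) and Foxa1 (-0.65, adjusted p = 0.0245), factors of hepatocyte identity, were the others. All 5 calls were lost when a single library was left out, with adjusted p within 0.0601 to 0.165 over the donors and regulators together. Nr1i2, which encodes PXR, Hnf4a and Stat5b were not called, and Cux2, a female-biased repressor, was at 0.01 to 0.14 FPKM in all 8 libraries.

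**Figure D4:**
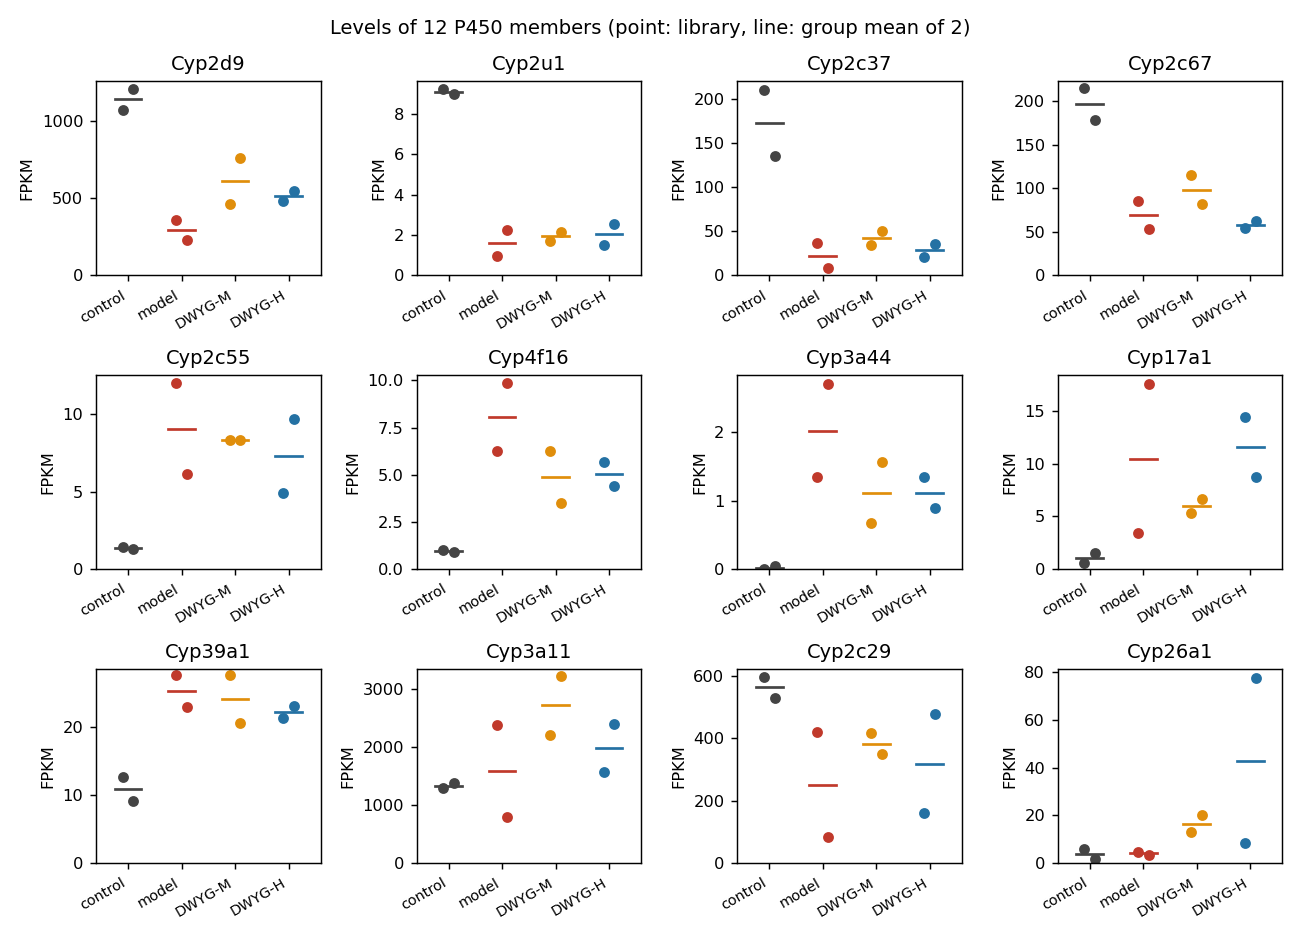
FPKM of 12 members in each library, with a point per library and a line at the mean of the 2 libraries of a group; each panel has its own axis starting at 0. In Cyp2u1 and Cyp2c37 every DEN-treated library lies below both controls, whereas in Cyp3a11 and Cyp26a1 single libraries set the spread.

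At the medium dose of DWYG no member passed the test against the model. Only 0.00862% of all tested genes, a single gene, was called higher and 0% lower. With edgeR, 15 of the 44 members had an unadjusted p under 0.05, all with higher levels in DWYG-M, where 1468 of all 11606 genes had one in either direction. DESeq2 called 5 members higher (Cyp2c50, Cyp2c54, Cyp2d9, Cyp2f2 and Cyp3a59, adjusted p 0.00732 to 0.0347) and 206 genes in all, and limma on FPKM called no member. The median log2 fold change of the tested members was 0.45 against -0.02 over all genes. In scaled counts, both DWYG-M libraries lay above both model libraries in 25 of the 44 members (56.8%) against 20.4% of all genes, and below them in 2 (4.55%) against 20.2%.

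The 3 members with the smallest p did not pass. Cyp4b1 was at 15.4 and 13.4 FPKM in DWYG-M against 9.97 and 8.68 in the model (log2 0.69, SE 0.15, adjusted p = 0.213). Cyp2d9 was at 464 and 757 against 358 and 228 (log2 1.13, SE 0.29, adjusted p = 0.252), and Cyp2f2 at 498 and 938 against 368 and 231 (log2 1.34, SE 0.38, adjusted p = 0.275). In these genes both DWYG-M libraries were above both model libraries. This comparison and that of model with control rest on the same model libraries, of which replicate 2 was low in many members. The median over members was 0.38 on leaving out model replicate 2. On leaving out model replicate 1 it was 0.78 and 1 member was called.

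By subfamily, the DWYG-M against model medians were 0.63 for Cyp2c, 0.64 for Cyp2d, 0.17 for Cyp2j, 0.66 for Cyp3a, 0.12 for Cyp4f and 0.45 for the others. The epoxygenases Cyp2c50 (335 and 534 FPKM) and Cyp2c54 (111 and 206) were above both controls in DWYG-M replicate 2 in FPKM, and below both in scaled counts in each DWYG-M library. Cyp2c37, at 34.4 and 50.4, and Cyp2u1, at 1.71 and 2.15, stayed below both controls in both DWYG-M libraries. Cyp3a11 was at 2221 and 3237 FPKM, above both controls. Summed cholangiocyte markers were 7.0 and 8.98 in DWYG-M against 25.2 and 25.9 in the model, and stellate markers 200 and 242 against 308 and 306, and their part in the member values was not tested.

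At the high dose none of the members passed against the model either, and 0% of all tested genes did. In edgeR 7 members had an unadjusted p under 0.05, 6 of them higher, where 985 of all genes had one. DESeq2 called no member and 120 genes in all, and limma on FPKM called no member. The median over members was 0.38 against -0.01 over all genes, and it was 0.18 on leaving out model replicate 2 and 0.20 on leaving out DWYG-H replicate 2. Both DWYG-H libraries lay above both model libraries in 15 members (34.1%) against 17.2% of all genes, and below in 2 (4.55%) against 17.3%.

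Cyp26a1, whose product degrades retinoic acid, had the smallest p of the members at the high dose. It was at 8.24 and 77.7 FPKM in DWYG-H against 4.62 and 3.49 in the model, from 199 and 2015 reads (log2 3.55, SE 0.95, adjusted p = 0.361). DWYG-H replicate 2 set this value, since without it the log2 value was 1.20 (adjusted p = 0.970). In DWYG-M the gene was at 12.8 and 20.2 FPKM, so that each of the 4 DWYG libraries was above each of the 4 without DWYG. Cyp26b1, at 6.84 and 2.32 with DWYG-M, overlapped the 1.10 to 3.44 of the libraries without DWYG, while with DWYG-H it was at 5.63 and 4.53, above them. Cyp4f14 was at 92.2 and 145 FPKM in DWYG-H (log2 0.84, SE 0.27, adjusted p = 0.470), and Cyp2d9 at 481 and 545 (log2 0.88, SE 0.29, adjusted p = 0.472).

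By subfamily, the DWYG-H against model medians were 0.09 for Cyp2c, 0.48 for Cyp2d, 0.21 for Cyp2j, 0.49 for Cyp3a, 0.08 for Cyp4f and 0.39 for the others. Of the genes for electron donors and haem supply and of the regulators, none was called against the model at either dose in edgeR, with medians of 0.28 and 0.16 at the medium and 0.20 and 0.12 at the high dose. Alas1 was at 61.1 and 54.0 FPKM at the medium dose and 55.3 and 62.2 at the high dose, between the control libraries and below both model libraries.

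The members called in the model had the following levels under DWYG. Cyp2c55 was at 8.31 in both DWYG-M libraries and at 4.88 and 9.68 FPKM in those of DWYG-H, and Cyp4f16 at 6.25 and 3.5 and at 5.70 and 4.42. Cyp39a1 was at 27.5 and 20.5 and at 21.2 and 23.0, and Cyp20a1 at 9.69 and 8.84 and at 9.45 and 8.80. Cyp17a1 was at 5.32 and 6.65 and at 14.4 and 8.69. In these genes each DWYG library was above both controls.

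Among the genes lowered in the model, Cyp2j5 was at 129 and 200 FPKM with DWYG-M and 140 and 149 with DWYG-H, Cyp4v3 at 145 and 208 and at 148 and 146, and Cyp2c23 at 169 and 221 and at 128 and 147. All of these libraries lay below both controls. Cyp2f2, at 498 and 938 FPKM with DWYG-M and 393 and 665 with DWYG-H, was above both controls in DWYG-M replicate 2 in FPKM but not in scaled counts. Cyp2c29 ranged from 160 FPKM in DWYG-H replicate 1 to 478 in DWYG-H replicate 2, with 416 and 349 in DWYG-M. Cyp2c70 was at 546 and 487 FPKM with DWYG-M and at 221 and 825 with DWYG-H, above both controls in each library, with the lowest and the highest of these in the high dose group.

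**Figure D5:**
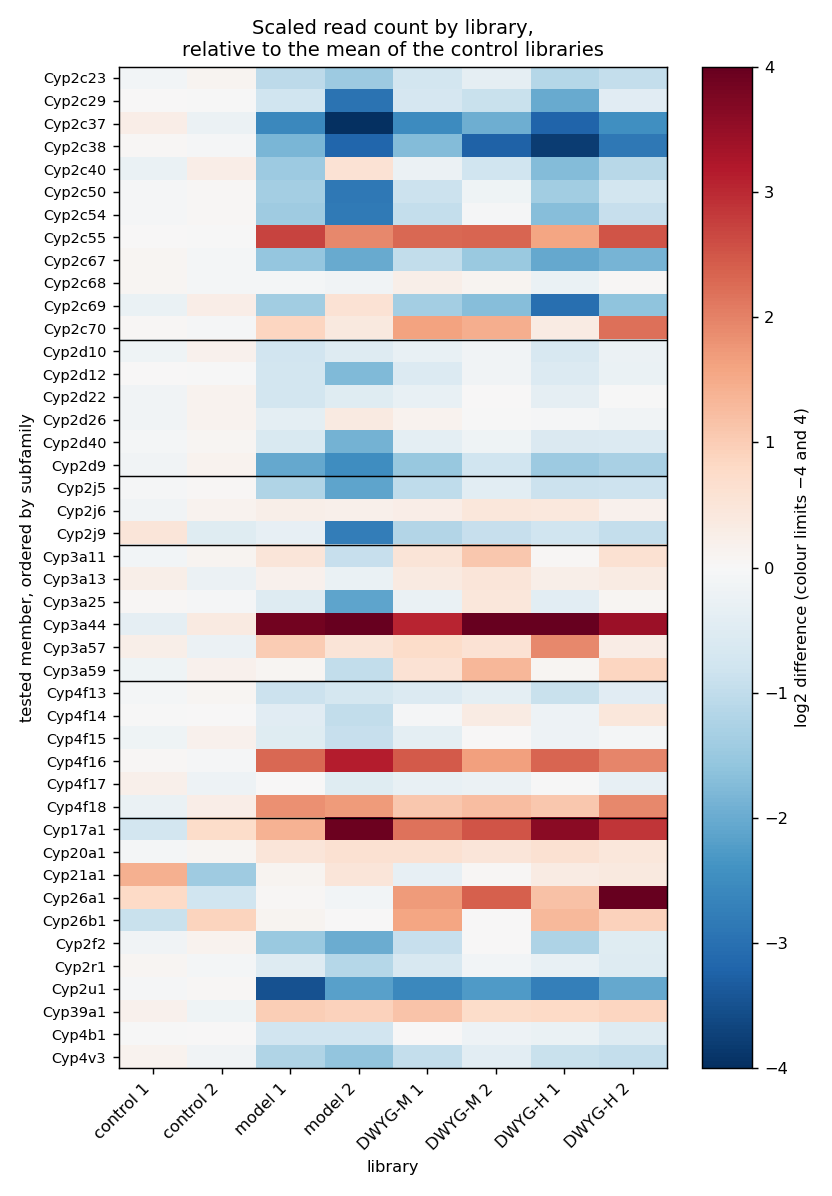
Scaled read count of each of the 44 tested members in each library, as the log2 difference from the mean of the control libraries, with colours limited to -4 and 4. Blue in the model columns of Cyp2c37, Cyp2c38 and Cyp2u1 persists in the DWYG columns, and model replicate 2 is the lowest library in 21 of the 44 rows.

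Compared with control, DWYG-M left 4 members called higher (9.09%, against 4.35% of all genes) and 2 lower (4.55%, against 0.603%). The higher ones were Cyp2c55 (log2 2.36, SE 0.38, adjusted p = 0.0156), Cyp4f16 (2.15, SE 0.40, 0.0244), Cyp3a44 (5.52 on 1 control read, 0.0298) and Cyp39a1 (0.94, SE 0.19, 0.0323). Of these, Cyp3a44 passed the filter only through DEN-treated libraries, and Cyp4f16 also needed a DEN-treated library to be tested. The share of higher calls is therefore not free of the choice of genes by the filter. The lower ones were Cyp2u1 (-2.45, SE 0.41, 0.0180) and Cyp2c67 (-1.21, SE 0.23, 0.0260). Of all genes, 4.95% were called in either direction. In scaled counts 15 members (34.1%) lay above both controls in both DWYG-M libraries against 28.9% of all genes, and 18 (40.9%) below against 25.3%. All 6 calls were lost without either control library, and the control libraries are those of the comparison of model with control.

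DWYG-H against control gave 5 members higher (11.4%, against 6.59% of all genes) and 6 lower (13.6%, against 1.09%). Higher were Cyp2c55 (log2 2.17, adjusted p = 0.0159), Cyp4f16 (2.21, 0.0172), Cyp3a44 (5.52 on 1 control read, 0.0229), Cyp39a1 (0.82, 0.0385) and Cyp4f18 (1.65, 0.0460). Here too Cyp3a44 and Cyp4f18 passed the filter only through DEN-treated libraries, and Cyp4f16 needed a DEN-treated library to be tested. Lower were Cyp2c67 (-1.96, 0.00429), Cyp2u1 (-2.37, 0.0155), Cyp2c38 (-3.28, 0.0173), Cyp2c23 (-1.05, 0.0285), Cyp2c37 (-2.80, 0.0289) and Cyp2d9 (-1.37, 0.0302). Of the 6 that fell, 4 are Cyp2c genes (33.3% of those tested, against 1.09% of all genes). Calls in either direction made up 7.69% of all genes. In scaled counts 13 members (29.5%) lay above both controls against 29.6% of all genes, and 21 (47.7%) below against 26.8%. Cyp2c67, at 54.3 and 62.7 FPKM, kept its call in all alternatives (adjusted p at most 0.0410), and the other 10 lost theirs when single libraries were left out, without either control library in each case. Foxa1 was the regulator called in both comparisons of DWYG with control, at 3.59 and 4.28 FPKM at the medium and 3.40 and 4.50 at the high dose.

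No member and no other gene was called in DWYG-H against DWYG-M (0%), 2 members had an unadjusted p under 0.05 in edgeR where 193 of all genes had one, and DESeq2 called no member and 5 genes in all. The median over members was -0.16. The smallest p were those of Cyp2c67, at 54.3 and 62.7 FPKM in DWYG-H and 116 and 81.7 in DWYG-M (log2 -0.75, SE 0.23, adjusted p = 1), Cyp2c23, at 128 and 147 against 169 and 221 (-0.50, SE 0.22), and Cyp4b1, at 12.5 and 10.8 against 15.4 and 13.4 (-0.30, SE 0.15). In each the DWYG-H libraries were the lower ones. In scaled counts the doses did not overlap in 2 members higher (4.55%) and 8 lower (18.2%) at the high dose, against 13.2% and 13.5% of all genes. With 2 mice a group, a p that misses the threshold does not show that the doses act alike.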

How the data were processed

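Liver RNA from 8 mice was sequenced with the SMART-Seq mRNA LP kit. Per the file headers, the deposited table gives an expected count, FPKM and TPM per gene and library. The expected counts, between 89.8% and 91.5% of them whole within 0.005, were made by the authors with tools not given in the sources used here; the submitters' processing notes name the build GRCm39. Whether counting used strand is not given, so antisense and overlapping genes, and close copies, can share reads. A further 24 per-sample or average columns were not used.

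Expected counts were rounded and tested with edgeR 4.0.16 in R 4.3.3: the quasi-likelihood test, TMM scaling, 1 model of 4 groups with 4 residual degrees of freedom, the 11606 genes that reached 1 FPKM in 2 or more libraries, and Benjamini-Hochberg adjustment over them, with calls under 0.05. A fold change in counts is on the log2 scale. Standard errors were derived from the test statistic. The 6 pairwise comparisons were run again under alternatives of scaling, filter, tool (DESeq2 1.42.0; limma 3.58.1 on log2 of the deposited FPKM plus 1 or 0.1, or of the deposited TPM plus 1), samples and block. The fit was tested on simulated data. Named genes were the members called, the highest member of 5 subfamilies, the 3 smallest p where fewer than 3 were called, and list members. Members and lists were chosen with earlier results of these data known; the adrenal lists, promoter pairs, ratios and medians, and Cyp2c68, Cyp2c70, Cyp2s1 and the uncalled Cyp2d, Cyp2j, Cyp3a and Cyp4f genes outside this rule as named genes, were chosen after seeing the values. Promoters were taken from RefSeq (GRCm38.p6) and aligned with Biopython 1.88. All 68 members matched the RefSeq gene table. Intervals cover counting error only.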

Additional observations from a re-analysis of the deposited data

How the results depend on the processing

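Each comparison was repeated under 14 alternatives, of which 4 left out 1 library each; there the lone library of a group was assumed to vary like the other groups. In model against control, members called higher ranged from 3 to 7 and lower from 6 to 19 when 1 library was left out, against 7 and 14 in all. In DWYG-M against model, DESeq2 called 5 higher, and leaving out 1 library gave 0 to 1. In DWYG-M against control, higher calls (4) were 11 on the TPM scale and 0 to 3 with 1 library left out; lower calls (2) were 4 without a filter, 5 with DESeq2, 1 on log2(FPKM + 0.1), 5 with only the 2 groups fitted and 0 to 0 with 1 library left out. In DWYG-H against control, higher calls (5) were 8 without a filter, 3 with an FPKM of at least 5, 8 with DESeq2, 11 on the TPM scale and 0 to 4 with 1 library left out; lower calls (6) were 11 with DESeq2, 12 with only the 2 groups fitted and 1 to 2 with 1 library left out. In the model, Cyp2d26 turned to -0.02 without a filter, -0.10 without control replicate 1 and -0.40 without model replicate 2. Cyp3a11 turned to 0.02 with an FPKM of at least 5, 0.05 on both FPKM scales, 0.38 on the TPM scale, and 0.01 without control replicate 2, and ranged from -0.89 to 0.46 with 1 library left out (0.46 without model replicate 2). Alad and Fech were at 0.03 on the TPM scale. The causes were not tested. Same-numbered samples had correlations of -0.14 to 0.26, so the numbers were not taken as pairs; with the replicate block against control, 7 members were called higher and 15 lower for the model (Cyp2d10 and Cyp2d22 gained, Cyp4f15 lost), 4 and 2 for DWYG-M and 4 and 6 for DWYG-H, and 0 elsewhere. With 2 libraries a group, most single calls did not survive the loss of 1.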
